A study of Mus musculus with 16 samples.

Results

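The transcripts of 10 genes that write, copy or remove DNA methylation were followed in mouse primordial germ cells (PGCs), from which eggs and sperm descend. They were the rows named Dnmt1, Uhrf1, Uhrf2, Dnmt3a, Dnmt3b, Dnmt3l, Tet1, Tet2, Tet3 and Tdg, and all 10 were found among the 26219 genes of both expression tables. The series, whose title concerns the continued requirement for PRDM1 in PGCs, held 16 libraries of 3′ RNA sequencing, in which reads come from the ends of transcripts. In the floxed set, 4 libraries labelled Prdm1 CKO (conditional knockout) came from C57BL/6 embryos at E11.5 (embryonic day) that carried Prdm1(flox/flox), Rosa26(neo-EYFP/+) and Dppa3-MCMP(Tg/0). The 4 Control libraries of the same stage and strain carried Prdm1(flox/flox) and Rosa26(neo-EYFP/+) without the transgene. The mothers of both groups were given 4-OHT (4-hydroxytamoxifen, which switches on Cre recombination) at day 10.5, at 3 mg per 25 g of body weight. In the wild-type set, Dppa3(EGFP/+) embryos of a mixed ICR and C57BL/6 background gave 2 libraries each of E10.5, E11.5, E13.5 female and E13.5 male PGCs, and the sex of the E10.5 and E11.5 cells was not labelled. The transgene is under Dppa3, a germ cell gene, so recombination was directed to PGCs and left the rest of the gonad floxed. The protocol describes sorts by EYFP fluorescence and by an antibody against SSEA-1 without tying either to a group. The Control embryos lack the transgene, so the Prdm1 deletion, the transgene with its Cre and any difference in sorting cannot be told apart.

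DNA methylation is the addition of a methyl group to cytosine, mostly in CpG dinucleotides. DNMT1 copies the mark to the new strand after replication, and UHRF1 brings it there by binding half-methylated DNA. DNMT3A and DNMT3B set new marks with the help of DNMT3L, TET enzymes oxidise the mark, and TDG cuts out the oxidised bases. PGCs lose most of their methylation as they migrate to and settle in the gonad, and new marks are set later, in prospermatogonia before birth in males and in growing oocytes after birth in females.

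Values were in RPM, reads that the authors scaled to a common library total. They are not divided by gene length, and the reads come from the ends of transcripts. The methylation genes were compared between groups and not ranked by level against each other. From the steps between low values, the floxed libraries held about 2798000 to 5032000 reads each and the wild-type ones 1485000 to 4783000, with E11.5 replicate 1 the shallowest. At that depth 3 reads were worth 0.596 to 1.07 RPM in the floxed libraries and 0.627 to 2.02 RPM in the wild-type libraries, a limit that covers counting error only. Differences were tested with limma on log2(RPM + 1), a scale that understates the change of low genes, over genes at 5 RPM or more in at least 4 floxed or 2 wild-type libraries. Calls were made where the p-value, adjusted by Benjamini and Hochberg over all genes tested, was under 0.05. Whether replicates are separate embryos or litters is not labelled, so the p-values measure the spread between these libraries, which may be technical. In bulk samples such as these, fewer cells of a type and less RNA per cell cannot be told apart.

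The labels were first checked against marker genes. Stra8, a gene of meiotic entry, averaged 407 RPM in E13.5 female and 1.21 RPM in E13.5 male libraries. Nanos2, a male germ cell gene, averaged 0.105 RPM in E13.5 female and 39.5 RPM in E13.5 male libraries. The 9 PGC markers summed to 3155 to 3601 RPM in Prdm1 CKO libraries and 3491 to 3863 RPM in Control libraries. One of the 9 was called, Kit, a receptor of PGCs, at 185 ± 15.8 RPM in Prdm1 CKO libraries and 248 ± 19.8 RPM in Control libraries (SD, n = 4 each, limma adjusted p = 0.0360), with 2 higher and 3 lower at an unadjusted p under 0.05. Of 3 male germ cell markers 2 were tested, and 1 was called, Tdgf1, a NODAL co-receptor. Tdgf1 averaged 58.7 ± 10.8 RPM in Prdm1 CKO libraries and 18.6 ± 1.37 RPM in Control libraries (limma adjusted p = 7.71e-05). The other tested marker was not called and lay lower, and the median log2 difference of the 2 was 0.60, against 1.59 for Tdgf1. The 3 markers summed to 87.3 to 119 RPM in Prdm1 CKO libraries and 65.0 to 102 RPM in Control libraries, which overlapped. Prdm1 itself stood at 79.9, 84.1, 76.6 and 89.4 RPM in the Prdm1 CKO libraries, against 66.2, 50.7, 63.0 and 73.0 RPM in the Control libraries. A 3′ tag need not lie in the deleted part, so it is no check of the deletion or of the labels, and each direction below rests on the label. Markers of other cell types were present at low levels and uneven. Summed over 9 gonadal somatic and mesenchymal genes, Prdm1 CKO libraries 1 to 4 had 88.9, 16.7, 9.76 and 221 RPM, and Control libraries 1 to 4 had 12.7, 64.7, 17.3 and 25.7 RPM. Prdm1 CKO replicate 4 was the highest, also for 4 endothelial markers, at 51.1 RPM against 8.24 to 20.4 RPM in the other 7 floxed libraries. In the wild-type set the same 9 genes summed to 53.7 to 55.7 RPM at E10.5 and 3.42 to 15.4 RPM later, and 4 erythroid genes to 213 to 224 RPM at E10.5 and 2.34 to 32.6 RPM later.

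The first comparison asked which of these genes differed at E11.5 after induction of the Prdm1 deletion. Of the 10 genes, 6 passed the filter, and 2 of these were called, Dnmt3a and Uhrf1, both higher in the Prdm1 CKO libraries. Over all 9384 genes tested, 2.43% were called in either direction. Uhrf1 would not have passed the filter on its Control libraries alone. Dnmt1, Uhrf2, Tet1 and Tdg were tested and not called, and Dnmt3b, Dnmt3l, Tet2 and Tet3 were below the filter.

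Among the maintenance genes, Uhrf1 (Entrez 18140, chromosome 17, 56303337 to 56323486, GRCm38) moved apart from its partner Dnmt1. Uhrf1 stood at 8.82, 11.9, 10.6 and 21.4 RPM in the Prdm1 CKO libraries, against 3.24, 5.77, 3.72 and 5.18 RPM in the Control libraries. Every Prdm1 CKO library lay above every Control library, and replicate 4 was the highest of all. These levels rested on about 37 to 60 reads per Prdm1 CKO library and 11 to 29 per Control library. The gene reached 5 RPM in 4 Prdm1 CKO and 2 Control libraries. It was thus tested through the group where it is high, and a difference was partly built into its being tested. The log2 difference was 1.33 ± 0.28 (SE, n = 4 each, 95% interval 0.72 to 1.93, limma adjusted p = 0.0215), or 2.51-fold on the log2(RPM + 1) scale. The call did not hold without Control replicate 3 (adjusted p = 0.0716), Prdm1 CKO replicate 2 (0.0801), replicate 3 (0.0531) or replicate 4 (log2 difference 1.08, adjusted p = 0.0573), nor with no filter on low values (0.101). Dnmt1 (Entrez 13433, chromosome 9, 20907206 to 20959888) stood at 183, 176, 189 and 163 RPM in the Prdm1 CKO libraries, against 180, 210, 194 and 186 RPM in the Control libraries. The groups overlapped, and the log2 difference of -0.11 ± 0.09 had a 95% interval of -0.31 to 0.08 (adjusted p = 0.714). Uhrf2 (Entrez 109113), a paralog of Uhrf1 whose protein also binds modified DNA, stood at 128, 121, 141 and 118 RPM in the Prdm1 CKO libraries, against 157, 138, 146 and 136 RPM in the Control libraries. Its groups overlapped as well, with a log2 difference of -0.19 ± 0.10 and an interval of -0.39 to 0.02 (adjusted p = 0.490).

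Among the de novo genes, Dnmt3a (Entrez 13435, chromosome 12, 3801559 to 3914443) had the lowest adjusted p of the 6 tested. It stood at 54.1, 52.5, 61.7 and 76.9 RPM in the Prdm1 CKO libraries, against 28.0, 25.3, 32.0 and 27.1 RPM in the Control libraries. The lowest Prdm1 CKO library was well above the highest Control library. The log2 difference was 1.09 ± 0.15 (SE, n = 4 each, 95% interval 0.77 to 1.40, limma adjusted p = 0.000790), or 2.13-fold. It was called in all 20 alternative settings, with log2 differences of 0.90 to 1.16 and adjusted p-values of 0.000373 to 0.00577. Dnmt3a makes a long and a short protein from different start sites, and reads from the shared 3′ end do not tell them apart. Dnmt3b (Entrez 13436) stood at 2.09, 4.57, 7.18 and 1.79 RPM in the Prdm1 CKO libraries, against 0.589, 4.97, 2.41 and 1.18 RPM in the Control libraries. These values overlapped and amounted to 2 to 25 reads per library. Dnmt3l (Entrez 54427), which encodes a cofactor without catalytic activity of its own, was at 0.232, 0, 0 and 0 RPM in the Prdm1 CKO libraries, against 0, 0.398, 0.219 and 0 RPM in the Control libraries. That is at most 2 reads in any library, at or under the limit of detection.

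**Figure D1:**
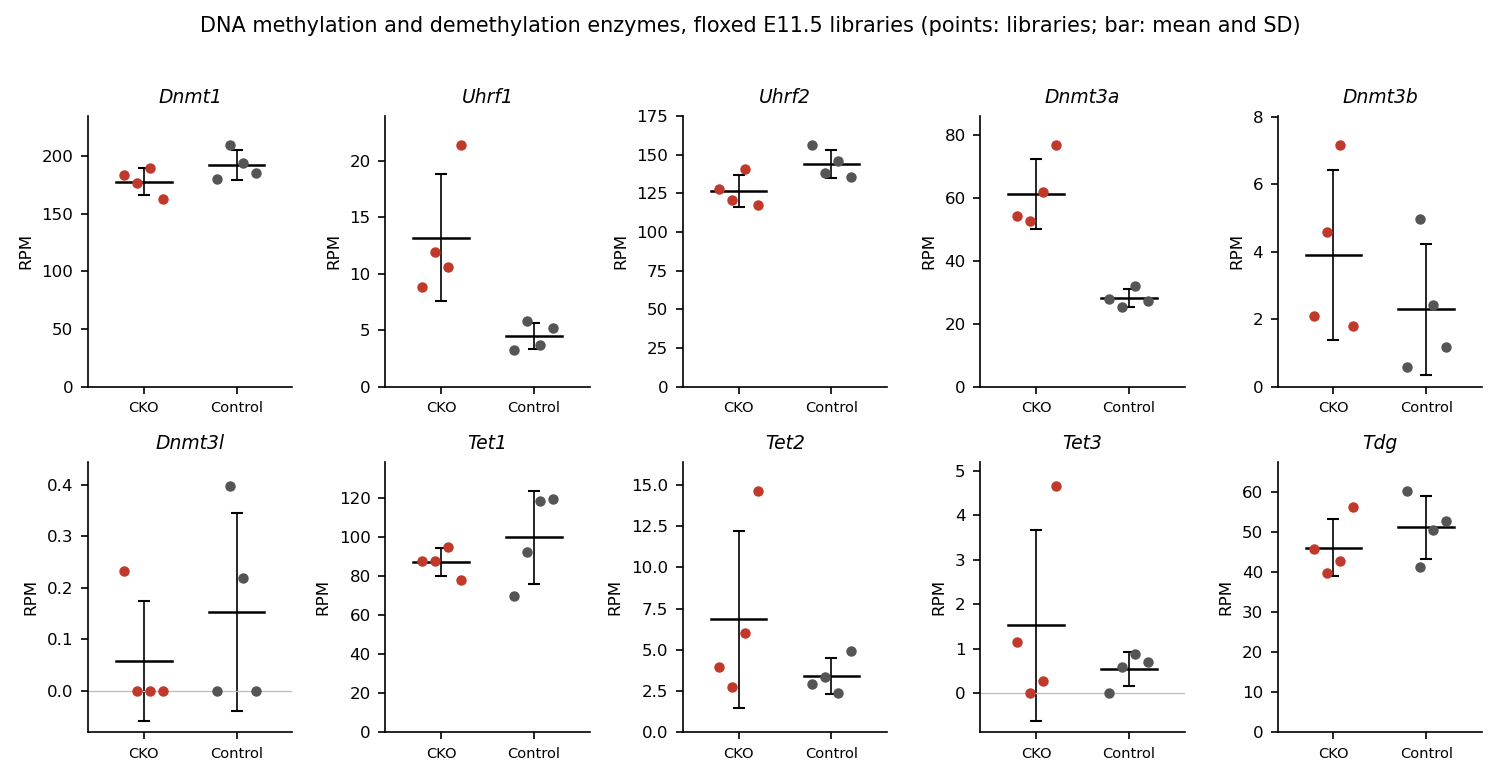
Level in RPM of each of the 10 genes (y axis, own scale per panel) in the Prdm1 CKO libraries (left, red) and the Control libraries (right, grey). Points are libraries in replicate order and bars are the mean and SD of 4. The groups are apart for Dnmt3a and Uhrf1 and overlap for the other 8. How many of all genes lie apart in this way was not counted, and Uhrf1 was tested through its high group.

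Among the demethylation genes none was called. Tet1 (Entrez 52463), the main TET gene of PGCs, stood at 87.8, 87.8, 95.3 and 77.9 RPM in the Prdm1 CKO libraries, against 69.7, 92.3, 119 and 119 RPM in the Control libraries. The Control libraries spread wider and enclosed the Prdm1 CKO values, with a log2 difference of -0.17 ± 0.16 and an interval of -0.51 to 0.17 (adjusted p = 0.764). Tdg (Entrez 21665) stood at 45.7, 39.7, 42.8 and 56.1 RPM in the Prdm1 CKO libraries, against 60.3, 41.2, 50.6 and 52.8 RPM in the Control libraries, a log2 difference of -0.15 ± 0.15 with an interval of -0.47 to 0.17 (adjusted p = 0.781). Tet2 (Entrez 214133) stood at 3.95, 2.78, 6.03 and 14.7 RPM in the Prdm1 CKO libraries, against 2.94, 3.38, 2.41 and 4.95 RPM in the Control libraries. Tet3 (Entrez 194388), best known for oxidising the paternal genome of the zygote, stood at 1.16, 0, 0.287 and 4.65 RPM in the Prdm1 CKO libraries, against 0, 0.597, 0.876 and 0.707 RPM in the Control libraries. For both genes only Prdm1 CKO replicate 4 was above the Control range by a wide margin.

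Prdm1 CKO replicate 4, with the highest somatic marker sum, was also the highest floxed library for Dnmt3a, Uhrf1, Tet2 and Tet3. Without it the log2 difference of Dnmt3a was 0.98 (limma adjusted p = 0.00323). With the somatic marker sum as a covariate the difference was 1.06 for Dnmt3a (adjusted p = 0.00203) and 1.19 for Uhrf1 (adjusted p = 0.0335). Prdm1 CKO replicates 2 and 3, whose somatic sums of 16.7 and 9.76 RPM lie within or below the Control range, had 52.5 and 61.7 RPM of Dnmt3a, and 11.9 and 10.6 RPM of Uhrf1, all above every Control library. The fit adjusted for this 1 sum, which need not follow every other cell type. For Tet2 and Tet3 its part was not tested. Pre-granulosa markers, 3 genes, summed to 13.7, 5.37, 6.31 and 34.0 RPM in Prdm1 CKO libraries 1 to 4. In Control libraries 1 to 4 they summed to 0.294, 6.76, 0.876 and 3.53 RPM. Macrophage markers, 4 genes, summed to 3.78 to 13.2 RPM in the Prdm1 CKO libraries and 1.97 to 7.30 RPM in the Control libraries. The part of these other cell types in the differences of Dnmt3a and Uhrf1 was not tested.

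**Figure D2:**
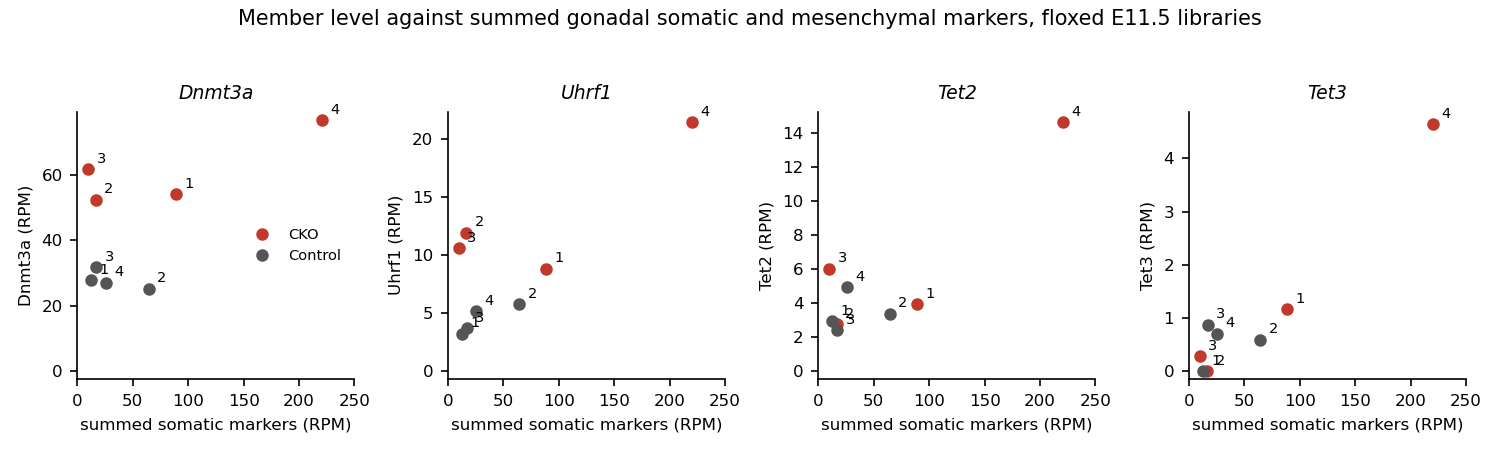
Level in RPM of Dnmt3a, Uhrf1, Tet2 and Tet3 (y axes) against the summed RPM of 9 gonadal somatic and mesenchymal markers (x axis) in each floxed library, Prdm1 CKO red and Control grey, labelled by replicate. Prdm1 CKO replicate 4 lies at 221 RPM of markers and is highest in all 4 panels, while replicates 2 and 3 lie among or below the Control libraries on the x axis.

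The start-site sequences of the 2 genes that were called are shown because PRDM1 is a DNA-binding repressor, together with that of Dnmt1 for comparison with Uhrf1. The RefSeq windows of GRCm38.p6 run from 250 bases before to 50 bases after an annotated start, and 17 windows covered all 10 genes. Both strands were searched for GAAAGT, the core of the PRDM1 motif, and for TTTCGCGC or TTTGGCGC, forms of the E2F motif of cell cycle genes. One E2F form, read on the other strand, ends in GAAA and can overlap GAAAGT, but no window held both. Capitals mark the matches. The Dnmt1 windows that are not printed held neither motif and had 2 and 12 CpG. The Dnmt3a windows that are not printed had 46 and 47 CpG, and the first Uhrf1 window had 12. The 4 windows are the first Uhrf1 window at chr17:56303087-56303386 on the plus strand, the second Uhrf1 window at chr17:56304063-56304362 on the plus strand, a Dnmt1 window at chr9:20952574-20952873 on the minus strand, and the last of 3 Dnmt3a windows at chr12:3891494-3891793 on the plus strand.
Uhrf1 first window: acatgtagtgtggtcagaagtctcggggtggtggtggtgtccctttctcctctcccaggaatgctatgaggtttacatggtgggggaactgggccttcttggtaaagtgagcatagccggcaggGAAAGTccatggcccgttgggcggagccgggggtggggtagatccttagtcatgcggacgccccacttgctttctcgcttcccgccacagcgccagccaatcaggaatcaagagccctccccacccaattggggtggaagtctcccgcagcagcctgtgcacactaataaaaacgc
Uhrf1 second window: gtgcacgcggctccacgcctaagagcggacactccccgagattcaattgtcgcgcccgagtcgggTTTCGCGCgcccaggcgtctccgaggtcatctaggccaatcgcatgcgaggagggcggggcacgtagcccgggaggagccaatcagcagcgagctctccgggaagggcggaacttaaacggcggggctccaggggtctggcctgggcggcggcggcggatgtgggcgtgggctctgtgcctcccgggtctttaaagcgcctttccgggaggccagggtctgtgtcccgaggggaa
Dnmt1 window: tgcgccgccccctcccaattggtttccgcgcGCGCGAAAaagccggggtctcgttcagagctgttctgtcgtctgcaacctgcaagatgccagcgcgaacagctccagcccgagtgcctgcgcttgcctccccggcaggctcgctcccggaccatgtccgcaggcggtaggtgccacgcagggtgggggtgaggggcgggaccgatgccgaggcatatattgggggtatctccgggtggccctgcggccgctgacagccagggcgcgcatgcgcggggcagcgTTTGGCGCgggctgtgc
Dnmt3a window: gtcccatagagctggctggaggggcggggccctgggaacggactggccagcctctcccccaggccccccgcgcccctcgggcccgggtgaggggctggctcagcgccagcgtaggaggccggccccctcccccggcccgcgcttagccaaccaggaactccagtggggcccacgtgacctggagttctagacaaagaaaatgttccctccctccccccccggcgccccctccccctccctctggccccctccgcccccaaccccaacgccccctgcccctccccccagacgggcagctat
GAAAGT lay in 2 of the 17 windows, 126 bases before the first Uhrf1 start and 80 bases before a Dnmt3l start, and 14.3% of all 32851 windows held it. An E2F form lay in 2 of the 17, the second Uhrf1 window 185 bases before the start and the Dnmt1 window, which held one 219 bases before and one at base 34 after the start, and 0.813% of all windows held one. None of the 3 Dnmt3a windows held either. The second Uhrf1 window and the printed Dnmt1 window held 33 CpG each and the printed Dnmt3a window 18, against a median of 7 over all windows. These are letters in a window and say nothing of binding.

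Around these genes, lists of the same pathway were described in the same comparison, and the lists were chosen with earlier results of these data known. Over all genes tested, 2.43% were called in either direction. Of 14 base excision repair and deamination genes tested, 2 were higher in the Prdm1 CKO libraries and 12 were not called, with 2 higher and 3 lower at an unadjusted p under 0.05. The called genes were Apobec3, a cytidine deaminase known from antiviral defence, and Gadd45g, a stress-induced gene. Apobec3 averaged 9.41 ± 2.01 RPM in the Prdm1 CKO libraries and 1.90 ± 0.329 RPM in the Control libraries (SD, n = 4 each, limma adjusted p = 0.000882). Gadd45g averaged 11.1 ± 1.68 RPM in the Prdm1 CKO libraries and 2.28 ± 1.04 RPM in the Control libraries (adjusted p = 0.00143). Both Control means lie under the 5 RPM filter. These 2 genes were thus tested through the Prdm1 CKO libraries, and a rise was partly built into their being tested. Of 15 genes that target or regulate methylation, 1 was called, Nsd1, a histone H3 lysine 36 methyltransferase, at 48.4 ± 6.22 RPM in the Prdm1 CKO libraries and 26.8 ± 6.76 RPM in the Control libraries (adjusted p = 0.0282). Of 6 methyl-CpG binding genes and 9 genes of methyl donor and cofactor supply, limma called 0, with 1 in each list at an unadjusted p under 0.05, all lower. Of 11 germline genes known to be silenced by promoter methylation, limma called 0, with 1 higher and 3 lower at an unadjusted p under 0.05. Their median log2 difference was -0.40, against -0.01 for all genes tested. Of 16 S phase genes limma called 0, with 2 lower at an unadjusted p under 0.05, and the 17 listed genes summed to 4750 to 5185 RPM in the Prdm1 CKO libraries and 5199 to 5494 RPM in the Control libraries. The highest Prdm1 CKO sum, 5185 RPM, lay just under the lowest Control sum, 5199 RPM. Whether cell cycle state takes part in the difference of Uhrf1, a gene of replicating cells, was not tested.

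The wild-type libraries show the course of the same genes in normal PGCs. Of the 10 genes, 8 passed the filter, and Dnmt3l and Tet3 did not. Between E11.5 and E10.5 none of the 8 was called by limma or by limma voom, and 1, Tdg, had an unadjusted p under 0.05. Over the 10749 genes tested, 4.28% were called. In E13.5 female against E11.5 libraries 3 of the 8 were called, with Uhrf1 and Tet2 higher and Uhrf2 lower, against 51.2% of all genes tested. In E13.5 male against E11.5 libraries 5 of the 8 were called, with Uhrf1, Dnmt3b and Tet1 higher and Dnmt1 and Uhrf2 lower, against 38.2% of all genes. Where so much of the transcriptome was called, a count over 8 genes is no result about them, and the single genes are described instead.

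Set against E10.5, a pair of comparisons added after the data were seen, 5 of the 8 were called in E13.5 female libraries, with Uhrf1 and Dnmt3b higher and Uhrf2, Tet1 and Tdg lower, against 51.5% of all genes. In E13.5 male libraries 5 were called, with Uhrf1, Dnmt3b and Tet1 higher and Uhrf2 and Tdg lower, against 42.8% of all genes. Between E13.5 female and male libraries 2 were called, Dnmt1 higher and Tet1 lower in females, against 37.6% of all genes. The comparisons share libraries, so their calls are not independent. The median log2 difference of all genes tested was 0.13 for E13.5 female and 0.11 for E13.5 male against E11.5, and 0.16 and 0.14 against E10.5. Median-ratio scaling brought these 4 medians to 0.02, 0.03, 0.02 and 0.02, so a difference of a member can be read relative to them. Another scaling also changed the split of the calls. Against E10.5 there were 3436 higher and 2095 lower in E13.5 female libraries as deposited, and 2745 higher and 2756 lower after median-ratio scaling. For E13.5 male libraries the numbers were 2726 higher and 1877 lower as deposited, and 2158 higher and 2287 lower after it. Against E11.5 quantile normalization gave 2731 higher and 2811 lower in E13.5 female libraries, where the deposited values gave 3354 higher and 2148 lower.

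**Figure D3:**
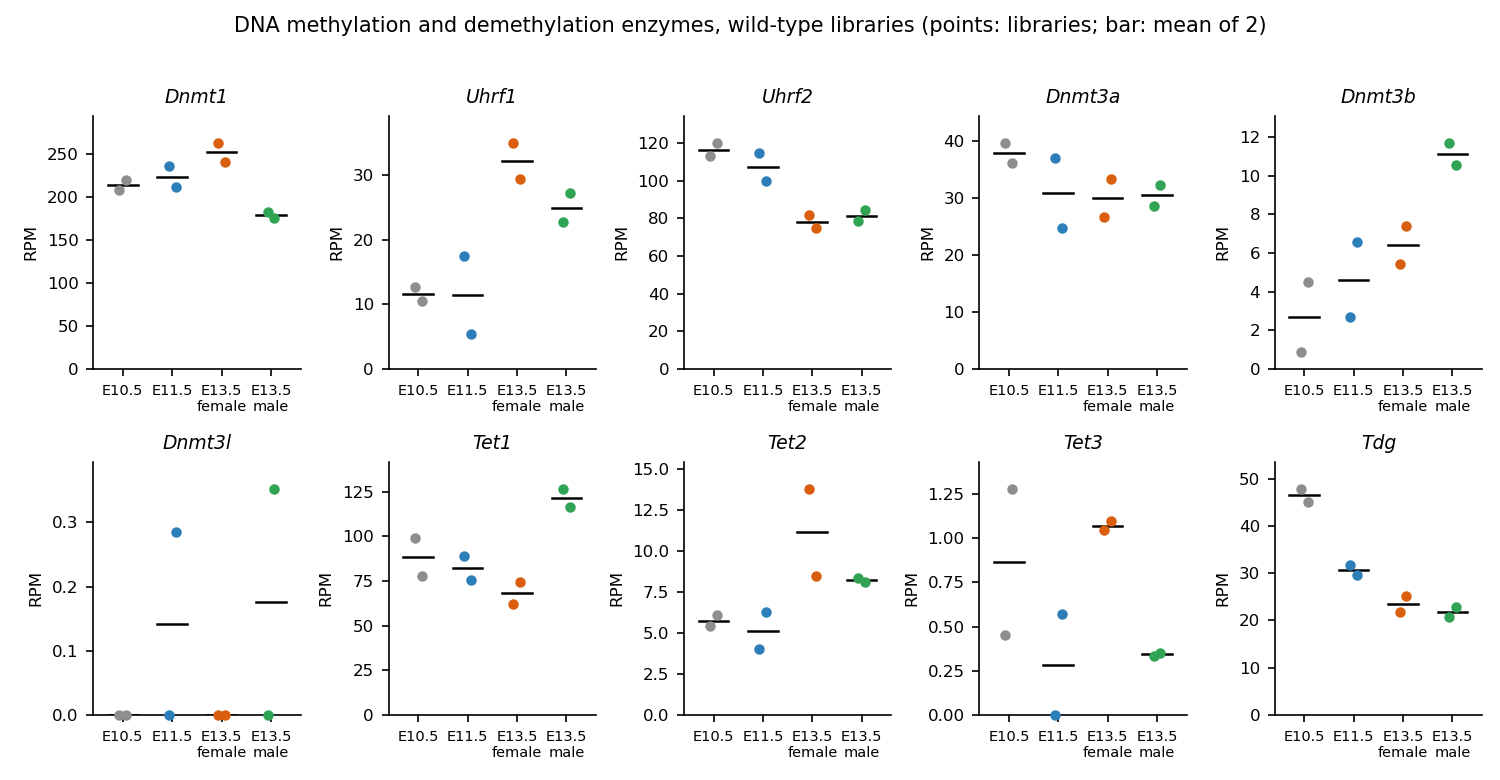
Level in RPM of each of the 10 genes (y axis, own scale per panel) in wild-type libraries of E10.5, E11.5, E13.5 female and E13.5 male PGCs. Points are libraries and bars the mean of 2; Uhrf1 and Dnmt3b are highest and Tdg and Uhrf2 lowest at E13.5, and Tet1 and Dnmt1 part between the sexes.

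Of the maintenance genes in this course, Uhrf1 stood at 12.6 and 10.6 RPM in E10.5 libraries, 17.5 and 5.41 RPM in E11.5 libraries, 34.9 and 29.3 RPM in E13.5 females, and 22.7 and 27.1 RPM in E13.5 males. All 4 libraries of E13.5 lay above all 4 earlier ones, while the 2 libraries of E11.5 were far apart and enclosed those of E10.5. The log2 difference from E11.5 was 1.60 ± 0.34 in E13.5 females (limma adjusted p = 0.000285) and 1.25 ± 0.34 in E13.5 males (adjusted p = 0.00453). In females Uhrf1 was called in all 14 alternatives against E11.5 and against E10.5. In males the call against E11.5 ended without E11.5 replicate 2 (0.48, adjusted p = 0.224) and without E13.5 male replicate 2 (adjusted p = 0.0547). Against E10.5 the difference was 1.39 in females and 1.04 in males, the male call ending without E10.5 replicate 2 (adjusted p = 0.112) or E13.5 male replicate 2 (0.107). With no filter on low values both male calls ended too (limma adjusted p = 0.0800 against E11.5 and 0.122 against E10.5). The same held with no mean-variance trend (0.0797 and 0.118). Females and males did not differ beyond the error, at 0.35 ± 0.34 with an interval of -0.34 to 1.05.

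Dnmt1 stood at 208 and 219 RPM in E10.5 libraries, 236 and 211 RPM in E11.5 libraries, 262 and 240 RPM in E13.5 females, and 182 and 175 RPM in E13.5 males. The 2 earlier stages overlapped, the females lay above all of them and the males below all of them. The log2 difference between females and males was 0.49 ± 0.11 (95% interval 0.27 to 0.71, limma adjusted p = 0.000617), and it was called in all 14 alternatives. Against E11.5 Dnmt1 was lower in males, at -0.32 ± 0.11 (adjusted p = 0.0192), a call that ended without E11.5 replicate 1 (0.133) or E13.5 male replicate 2 (0.0971), and in females the difference was 0.17 ± 0.11 (adjusted p = 0.189). The male call of Dnmt1 also ended with no mean-variance trend (limma adjusted p = 0.127). Uhrf2 stood at 113 and 120 RPM in E10.5 libraries, 114 and 99.6 RPM in E11.5 libraries, 81.5 and 75.1 RPM in E13.5 females, and 78.8 and 84.2 RPM in E13.5 males. The levels of E13.5 lay below all earlier ones and the sexes overlapped. Its log2 difference from E10.5 was -0.57 ± 0.14 in females (adjusted p = 0.00101) and -0.51 ± 0.14 in males (adjusted p = 0.00328), called in all 14 alternatives each. From E11.5 the differences were -0.44 ± 0.14 in females (adjusted p = 0.00784) and -0.39 ± 0.14 in males (adjusted p = 0.0253). With no mean-variance trend this male difference was not called (limma adjusted p = 0.0865). The female call against E11.5 ended without E11.5 replicate 1 (0.0727) or E13.5 female replicate 2 (0.0842), and the male call without E11.5 replicate 1 (0.159) or either male library (0.128 and 0.0532). So the 2 paralogs, both RING-domain proteins that bind modified DNA, ran in opposite directions at E13.5, with Uhrf1 higher and Uhrf2 lower in both sexes against both earlier stages.

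Of the de novo genes, Dnmt3a stood at 39.7 and 36.2 RPM in E10.5 libraries, 37.0 and 24.8 RPM in E11.5 libraries, 26.8 and 33.4 RPM in E13.5 females, and 28.7 and 32.4 RPM in E13.5 males. It was not called in any wild-type comparison. All 4 libraries of E13.5 lay below both of E10.5, with log2 differences from E10.5 of -0.33 ± 0.22 in females (limma adjusted p = 0.215) and -0.30 ± 0.22 in males (adjusted p = 0.278), and with quantile normalization the female difference was called, at -0.55 (adjusted p = 0.0352). From E11.5 to E13.5 its log2 differences were -0.02 ± 0.22 in females and 0.01 ± 0.22 in males, with intervals of -0.47 to 0.44 and -0.45 to 0.46. The sign of both E11.5 differences depended on the scaling or tool. Its range over the wild-type course, 24.8 to 39.7 RPM, lay below all 4 Prdm1 CKO libraries, at 52.5 to 76.9 RPM, but the 2 tables were normalized separately and this was not tested. Dnmt3b stood at 0.903 and 4.48 RPM in E10.5 libraries, 2.69 and 6.55 RPM in E11.5 libraries, 5.44 and 7.40 RPM in E13.5 females, and 11.7 and 10.6 RPM in E13.5 males. Neighbouring stages overlapped except the males, which were above all other libraries. These values amounted to 2 to 35 reads per library, with 2 in E10.5 replicate 1, under the limit of 3 reads, and 4 in E11.5 replicate 1. Dnmt3b passed the filter through 5 libraries, 4 of them of E13.5, so a difference was partly built into its being tested. The log2 difference from E10.5 was 1.91 ± 0.47 in males (limma adjusted p = 0.00165) and 1.19 ± 0.47 in females (adjusted p = 0.0363), and from E11.5 it was 1.20 ± 0.47 in males (adjusted p = 0.0448) and 0.48 ± 0.47 in females (adjusted p = 0.414). Against E10.5 the male call ended without E10.5 replicate 1 (adjusted p = 0.0884), and the female call without E10.5 replicate 1 (0.526) or either female library (0.0728 and 0.210), and with median-ratio scaling (0.0598) or quantile normalization (0.138). Against E11.5 the male call ended without E11.5 replicate 1 (0.336) or either male library (0.172 and 0.126), and with limma voom (0.0725). Of 13 alternatives, the female call against E10.5 and the male call against E11.5 each held in 3. With no filter on low values their limma adjusted p-values were 0.161 and 0.197, and with no mean-variance trend 0.110 and 0.133. The female to male difference of -0.72 ± 0.47 was not called (adjusted p = 0.240). Dnmt3l was at 0 in 6 of the 8 wild-type libraries and at 1 read in the others, 0.285 RPM in E11.5 replicate 2 and 0.352 RPM in E13.5 male replicate 2. So the cofactor was not detectable above 3 reads in either sex at E13.5.

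Of the TET genes, Tet1 stood at 99.3 and 77.8 RPM in E10.5 libraries, 88.9 and 75.4 RPM in E11.5 libraries, 61.9 and 74.3 RPM in E13.5 females, and 127 and 117 RPM in E13.5 males. The males lay above and the females below all earlier libraries, while E10.5 and E11.5 overlapped. The female to male difference was -0.83 ± 0.15 on the log2 scale (95% interval -1.14 to -0.52, limma adjusted p = 7.26e-05), or 0.562-fold, and was called in all 14 alternatives. Against E11.5 Tet1 rose in males by 0.56 ± 0.15 (adjusted p = 0.00399, and 0.0521 without E11.5 replicate 2), and the female difference of -0.27 ± 0.15 was not called (adjusted p = 0.139). Against E10.5 the male difference was 0.46 ± 0.15 (adjusted p = 0.0144) and the female difference -0.37 ± 0.15 (adjusted p = 0.0412). The male call ended without E10.5 replicate 2 (0.230) or E13.5 male replicate 1 (0.103), and the female call without E10.5 replicate 1 (0.408) or E13.5 female replicate 1 (0.325). Median-ratio scaling (limma adjusted p = 0.0628), no filter on low values (0.0623) or no mean-variance trend (0.0977) also ended the male call against E10.5. The female call against E10.5 ended with no filter (0.108) or no trend (0.148). Against E11.5 the male call ended with no trend (0.0624).

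Tet2 stood at 5.42 and 6.08 RPM in E10.5 libraries, 4.04 and 6.26 RPM in E11.5 libraries, 13.8 and 8.50 RPM in E13.5 females, and 8.35 and 8.10 RPM in E13.5 males. The 4 libraries of E13.5 lay above the earlier ones. The female difference from E11.5, 0.97 ± 0.38, was called (limma adjusted p = 0.0350), but not without E11.5 replicate 1 (0.177) or E13.5 female replicate 1 (0.327). With no filter on low values the female difference was not called (limma adjusted p = 0.0831). The male difference of 0.61 ± 0.38 was not called (adjusted p = 0.216). Tet3 stood at 0.451 and 1.28 RPM in E10.5 libraries, 0 and 0.569 RPM in E11.5 libraries, 1.05 and 1.10 RPM in E13.5 females, and 0.334 and 0.352 RPM in E13.5 males, which is 0 to 5 reads and was not tested.

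Tdg, which encodes the glycosylase for oxidised cytosine, had 47.8 and 45.1 RPM in E10.5 libraries, 31.7 and 29.6 RPM in E11.5 libraries, 21.7 and 25.2 RPM in E13.5 females, and 20.7 and 22.9 RPM in E13.5 males. The stages did not overlap with each other, and the sexes did. The log2 difference from E10.5 was -0.96 ± 0.21 in females (limma adjusted p = 0.000509) and -1.06 ± 0.21 in males (adjusted p = 0.000209), 0.514-fold and 0.480-fold, and both were called in all 14 alternatives. Between E11.5 and E10.5 the difference of -0.59 ± 0.21 was not called (adjusted p = 0.114), nor were those between E13.5 and E11.5, -0.37 ± 0.21 in females (adjusted p = 0.149) and -0.47 ± 0.21 in males (adjusted p = 0.0825). The E10.5 libraries, in which Tdg was highest, were also those with erythroid and mesenchymal markers, and the part of these markers in the difference was not tested. Tdg shares 367 bases at its end with the antisense gene Glt8d2 (chromosome 10, 82650433 to 82650799), and the strand setting of the counting is not given in the sources used here. Glt8d2 averaged 0.157 to 0.999 RPM over the groups, far below Tdg. RefSeq also lists pseudogene copies of Tdg, Dnmt3a, Dnmt3b and Dnmt3l that have no row in the tables, so how reads shared with them were assigned is uncertain.

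**Figure D4:**
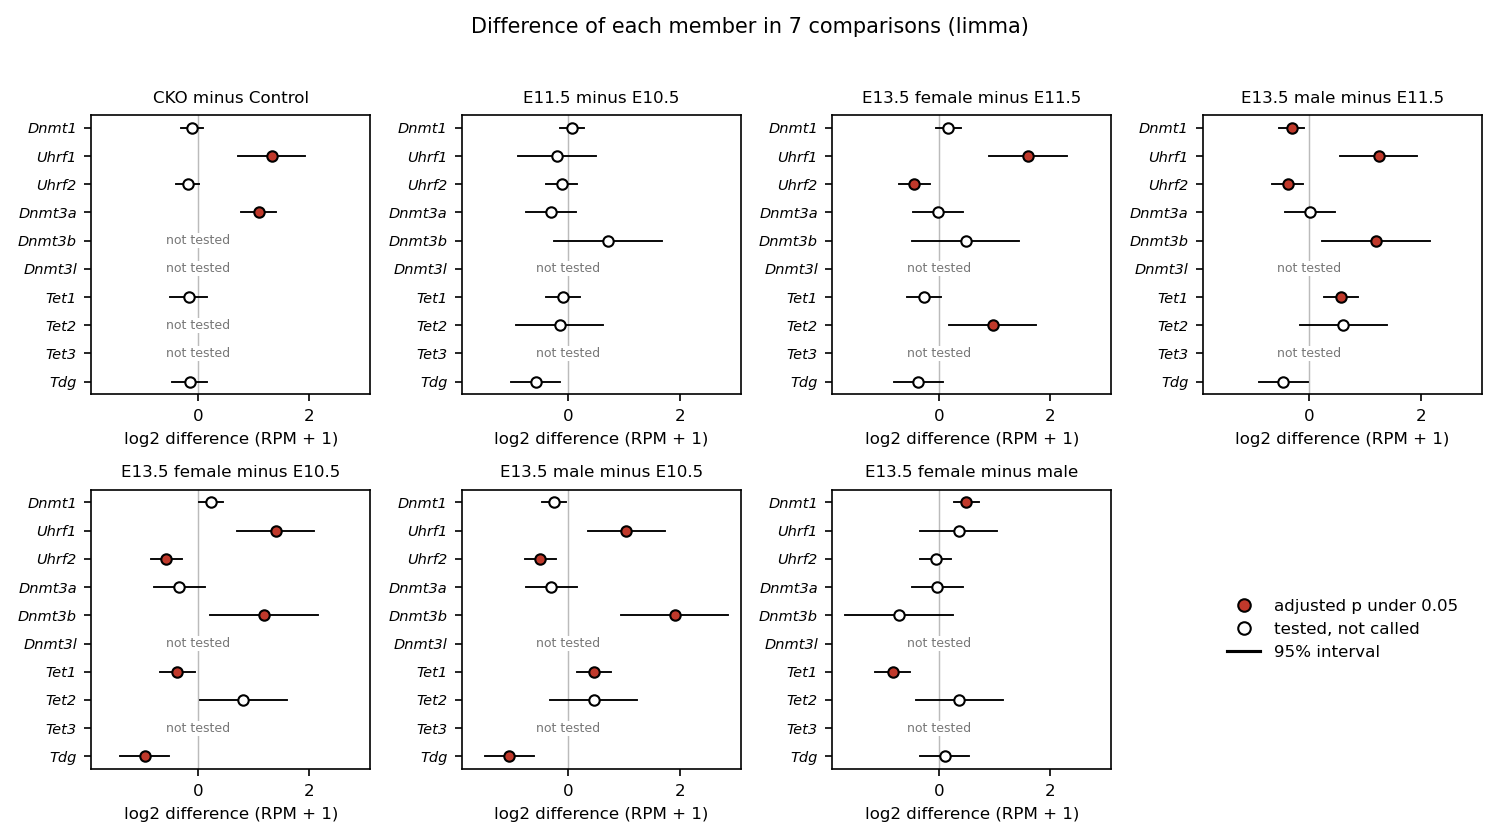
Log2 difference of RPM + 1 (x axis) with its 95% interval for each gene in 7 comparisons, filled where the limma adjusted p was under 0.05. Uhrf1 is filled in 5 panels and Uhrf2, always lower, in 4; Dnmt3a is filled in the Prdm1 CKO panel and in no wild-type panel.

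The S phase genes gave a measure of proliferation beside Uhrf1 and Dnmt1, both of which are known to be expressed in replicating cells. The 17 genes summed to 5080 to 5084 RPM at E10.5, 4528 to 4610 RPM at E11.5, 4214 to 4300.5 RPM in E13.5 females and 3815 to 3963 RPM in E13.5 males. Of 16 tested, 3 were higher and 7 lower in E13.5 females against E11.5, and 1 was higher and 10 lower in E13.5 males. Over all genes tested, 51.2% and 38.2% were called in either direction in these 2 comparisons. Rrm2, a ribonucleotide reductase subunit, averaged 21.8 ± 7.43 RPM in E13.5 males and 68.6 ± 8.77 RPM at E11.5 (SD, n = 2 each, limma adjusted p = 1.38e-07). Between the sexes at E13.5, 5 of 16 were higher in females and 0 lower, with 7 higher and 1 lower at an unadjusted p under 0.05. Over all genes tested, 37.6% were called between the sexes. Rrm2 averaged 44.0 ± 1.35 RPM in females and 21.8 ± 7.43 RPM in males (adjusted p = 0.000144). Dnmt1 was also higher in females, but 5 of 16 lies under the share of all genes called, so that count is no result about the list. More S phase genes fell than rose in both comparisons of E13.5 with E11.5, in which Uhrf1 rose. Whether cell cycle state takes part in either difference was not tested.

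The other lists of the pathway are given as counts, to be read against the 51.2% of all genes called in E13.5 females and 38.2% in E13.5 males against E11.5. Of 15 genes that target or regulate methylation, 9 were higher and 5 lower in E13.5 females against E11.5, and 10 higher and 1 lower in E13.5 males. Hells, a chromatin remodeller needed for methylation of repeats, averaged 404 ± 21.9 RPM in E13.5 females and 252 ± 25.4 RPM in E13.5 males, against 117 ± 12.4 RPM at E11.5 (SD, n = 2 each). Nsd1 averaged 102 ± 4.97 RPM in females and 94.5 ± 9.36 RPM in males, against 23.5 ± 3.76 RPM at E11.5. Kdm1b, a histone H3 lysine 4 demethylase needed for imprint setting in oocytes, averaged 75.9 ± 8.92 RPM in E13.5 females, a log2 difference of 2.43 ± 0.24 from E11.5 (SE, adjusted p = 4.17e-09). Dppa3, whose protein binds UHRF1 and is also the reporter locus here, averaged 2478 ± 126 RPM in females and 6283 ± 168 RPM in males (adjusted p = 1.32e-14). Against E10.5, Pcna, the replication clamp, was one of 2 genes of the list called at E11.5, both lower, at 927 ± 66.8 RPM at E11.5 and 1236 ± 3.82 RPM at E10.5 (adjusted p = 0.00407). In that comparison 4.28% of all genes tested were called.

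The donor list had a larger called share than all genes in both sexes, and the repair and methyl-CpG lists had smaller ones. With 12, 6 and 9 genes tested in the repair, methyl-CpG and donor lists, these counts are no result about the lists. Of 12 base excision repair and deamination genes, 1 was higher and 4 lower in E13.5 females against E11.5, and 0 were higher and 3 lower in E13.5 males. Ung, the uracil glycosylase, averaged 90.4 ± 3.62 RPM in females and 84.6 ± 4.38 RPM in males, against 166 ± 5.93 RPM at E11.5. Gadd45a, a stress-induced gene linked to repair, averaged 4.78 ± 1.28 RPM in males and 59.0 ± 8.95 RPM at E11.5 (SD, n = 2 each, limma adjusted p = 1.20e-12), and at 22.9 ± 0.663 RPM the females were above the males (adjusted p = 2.67e-08). Neil3, a glycosylase, was the gene that rose in females, to 40.4 ± 7.53 RPM against 10.8 ± 0.848 RPM at E11.5. Of 6 methyl-CpG binding genes, 2 were higher and 1 lower in females against E11.5, and 0 were higher and 2 lower in males, and Mbd3 was lower in both, at 117 ± 6.37 RPM in females and 132 ± 17.3 RPM in males against 234 ± 17.1 RPM at E11.5. Of 9 donor and cofactor genes, 2 were higher and 3 lower in females and 3 higher and 3 lower in males. Idh2, which makes the 2-oxoglutarate that TET enzymes use, was higher in females, at 148 ± 9.97 RPM, than in males, at 61.2 ± 1.35 RPM (adjusted p = 9.93e-09).

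Most germline genes known to be silenced by promoter methylation in other cells rose at each step of the course. Of 12 tested, 8 were higher and 0 lower at E11.5 against E10.5, and all 12 were higher at E13.5 against E11.5 in females and in males. Over all genes tested, 4.28%, 51.2% and 38.2% were called in either direction in these 3 comparisons. Their median log2 difference was 0.90 at E11.5 against E10.5, 2.56 in E13.5 females and 1.88 in E13.5 males against E11.5, where the medians of all genes were 0.02, 0.13 and 0.11. Dazl, which encodes an RNA-binding protein needed by germ cells, averaged 240 ± 27.3 RPM in E11.5 libraries and 34.2 ± 1.83 RPM in E10.5 libraries (SD, n = 2 each, limma adjusted p = 3.17e-18), and 1648 ± 10.6 RPM in E13.5 females and 1355 ± 50.3 RPM in E13.5 males. Mael, a piRNA factor, averaged 49.7 ± 5.46 RPM at E11.5 and 17.2 ± 3.28 RPM at E10.5 (adjusted p = 4.96e-08). Methylation itself was not measured in these libraries.

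**Figure D5:**
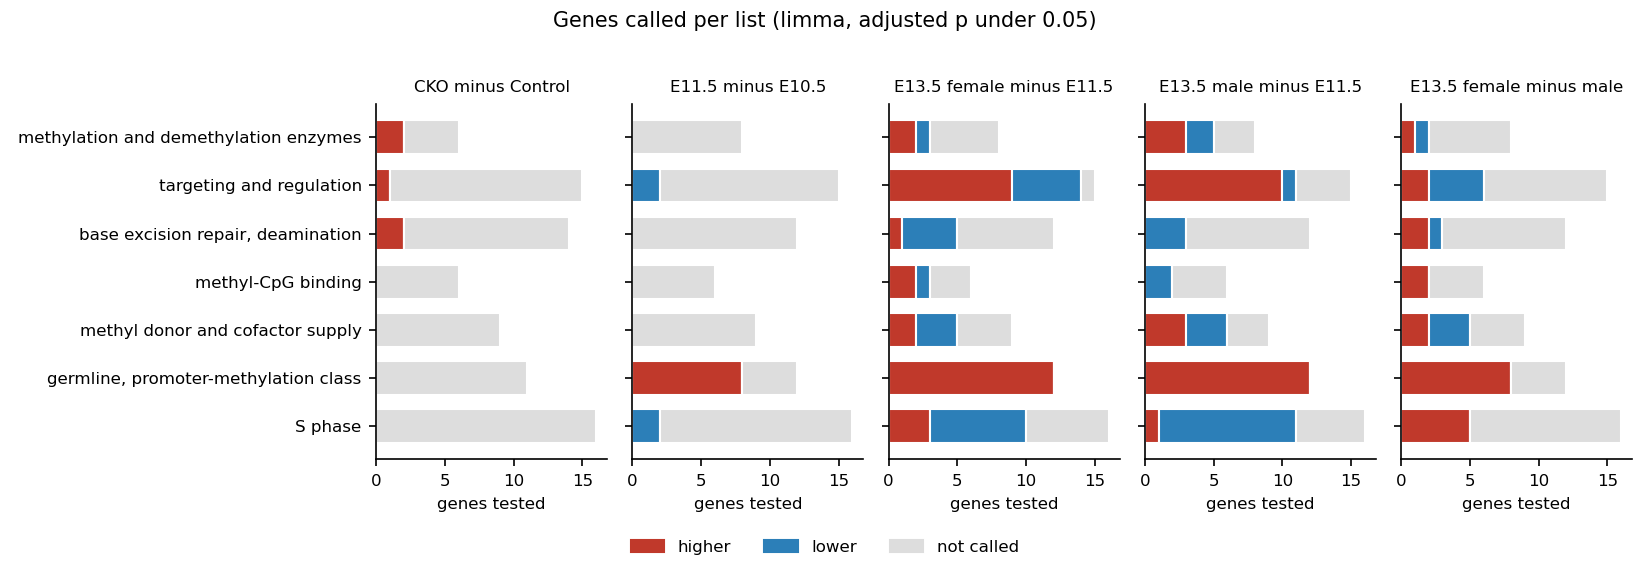
Number of genes tested (x axis) that were higher (red), lower (blue) or not called (grey) by limma in each of 7 gene lists (rows) and 5 comparisons (panels). The germline class is all higher in both E13.5 panels against E11.5, at 12 of 12, and not called in the Prdm1 CKO panel, at 0 of 11. Over all genes tested, 51.2% (female), 38.2% (male) and 2.43% (Prdm1 CKO) were called in either direction in these panels.

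For the 3 genes whose wild-type group means spanned at least 1 on the log2 scale, the nearest patterns over the 8 wild-type libraries were looked up among 9611 named genes. For Uhrf1 the highest Pearson correlations of log2(RPM + 1) were those of Fxr1 (r = 0.990), Angptl6 (0.982) and Sdccag3 (0.979). For Dnmt3b they were Wbp7 (0.969), Pik3ca (0.969) and Dennd4b (0.962), and for Tdg they were Traf3ip2 (0.989), Ppard (0.986) and Ednra (0.982). These are descriptions over 8 libraries that share 4 groups and their scaling, picked as the highest of all those compared.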

How the data were processed

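3′ RNA-seq of 16 mouse PGC libraries was analysed. The authors deposited gene-level RPM (reads scaled to a common library total) in 2 tables, one for the floxed and one for the wild-type libraries. Reads were trimmed, aligned and quantified with cutadapt 1.3, TopHat 1.4.1 and Cufflinks 2.2.0 on mm10, as listed in the submitters' processing notes. Libraries had 11 PCR cycles and the wild-type ones 1 ng of RNA, per the labels' protocols. The strand setting is not given in the sources used here. RPM are not counts, and a few genes have values that are not whole reads, so no count test was used. Depth was estimated from the step between low values.

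Each table was analysed separately, since they were normalized separately. Genes at 5 RPM in at least 4 floxed or 2 wild-type libraries were tested on log2(RPM + 1) with limma 3.58.1 in R 4.3.3, with a mean-variance trend and 1 fit per table over all its groups. P-values were Benjamini-Hochberg adjusted over all genes tested in a comparison. The method was tested on simulated data. The 92 spike-in rows of the wild-type table were left out. Members and lists were chosen with earlier results of these data known. All 10 members are named in every comparison, and of each other list up to 3 called genes with the smallest p-value. Alternatives were the pseudocount, filter, scaling, trend, weights, a replicate block, voom and leaving out each library.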

Additional observations from a re-analysis of the deposited data

Results flagged for a closer look

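Dnmt3l in Prdm1 CKO replicate 1, at 0.232 RPM, stood apart from the other 3 Prdm1 CKO libraries, all at 0. The value is 1 read. Of 20 groups of 4 libraries examined for a value far from the rest, this was the 1 found. Any read in 1 library beside 3 at 0 gives the largest possible gap. A chance rate of about 1 in 20 does not apply to such a value.

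The change of Dnmt1 at E13.5 against E11.5 differed between the sexes, by 0.49 on the log2 scale as female minus male. The change of Tet1 differed by -0.83. Both sexes are set against the same E11.5 libraries, so these are the female to male differences of E13.5, tested with limma (adjusted p = 0.000617 for Dnmt1 and 7.26e-05 for Tet1), with both female libraries above both male libraries for Dnmt1 and below them for Tet1.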

How the results depend on the processing

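For the Prdm1 CKO comparison, 2 members were called, and 1 with no filter on low values, 1 with the filter at 20 RPM and 1 with Control replicate 1 and Prdm1 CKO replicate 4 left out together; leaving out single libraries gave 1 to 2. Against E11.5, E13.5 males had 5 called, 3 with no filter and 0 with no mean-variance trend, and 1 to 3 with single libraries left out; females had 1 to 3. Against E10.5, males had 3 with no filter, 3 with no trend and 3 to 4 without single libraries, and females 3 with a pseudocount of 0.1, 3 with no filter and 3 to 5 without single libraries. The cause was not tested.

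With the replicate block the members called were 2 for Prdm1 CKO, 0 for E11.5 against E10.5, 5 and 3 for E13.5 males and females against E11.5, 5 each against E10.5 and 2 between the sexes, as without it. Deviations of same-numbered floxed libraries correlated at r over 0.1 in 3 of 4 pairs (0.0198 to 0.252), and 6 of 8 libraries correlated best with their own number, a hint from the data and not the design; not every pair did, so the numbers were not taken as pairs. In the wild type r was -0.0305 to 0.0331. Over all genes the block called 314 in the Prdm1 CKO comparison, where 228 were called without it.

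Scaling changed calls of members. Dnmt3b in males against E11.5 was not called with median-ratio scaling (limma adjusted p = 0.0621) or quantile normalization (0.0871), nor Tet2 in females (0.0615 and 0.160), while Tdg in males (0.0413 and 0.0415) and Tet1 in females (0.0314 and 0.0222) became called, both lower, as did Tdg in females with quantile normalization (0.0304). Against E10.5, Tet1 in males was not called with median-ratio scaling (0.0628), nor Dnmt3b in females with either (0.0598 and 0.138). Dnmt1 in males (0.00551 and 0.0423) and, with quantile normalization, Dnmt3a in females (0.0352) became called, both lower. The log2 difference of Dnmt3a against E11.5 changed sign in males, to -0.0708 with median-ratio scaling and -0.0734 with quantile normalization, and in females, to 0.0701 with voom, and that of Tdg between the sexes was -0.00108 with quantile normalization.

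Leaving out single libraries also turned the sign of uncalled differences. For E11.5 against E10.5 the ranges were -0.0164 to 0.14 for Dnmt1, -0.0541 to 1.47 for Dnmt3b, -0.27 to 0.0733 for Tet1, -0.42 to 0.11 for Tet2 and -0.97 to 0.56 for Uhrf1. Against E11.5 they were -0.27 to 0.29 for Dnmt3a in males, and -0.30 to 0.26 for Dnmt3a and -0.0378 to 0.99 for Dnmt3b in females. Between the sexes they were -0.18 to 0.13 for Dnmt3a, -0.12 to 0.00148 for Uhrf2 and -0.00190 to 0.20 for Tdg.

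The planned count test on recovered reads was not run, since a few genes have fractional values; voom and the comparisons of E13.5 with E10.5 were chosen after seeing the data. Over all genes, the Prdm1 CKO comparison gave 111, 101, 118 and 139 calls without Prdm1 CKO replicates 1 to 4 and 160 to 203 without single Control libraries, with 152 under no filter and 139 at 20 RPM. E11.5 against E10.5, with 460 calls, gave 100 without E10.5 replicate 1, 163 without E10.5 replicate 2, 80 with no filter, 27 with no trend and 279 with array weights. With 2 libraries per wild-type group, 1 library decides many calls, and genes under about 3 reads cannot be compared.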

Other observations

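The Control libraries of the floxed set and the wild-type E11.5 libraries are of the same stage but of different strain and were normalized separately, so their levels are given side by side without a test. Dnmt3a stood at 25.3 to 32.0 RPM in Control and 24.8 to 37.0 RPM in wild-type E11.5 libraries. Uhrf1 stood at 3.24 to 5.77 RPM in Control and 5.41 to 17.5 RPM in wild-type libraries, and Tdg at 41.2 to 60.3 RPM in Control and 29.6 to 31.7 RPM in wild-type libraries. The Uhrf1 levels of the Prdm1 CKO libraries, 8.82 to 21.4 RPM, overlapped those of the wild-type E11.5 libraries.

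The 10 genes summed to 496 to 554 RPM in Prdm1 CKO libraries and 502 to 551 RPM in Control libraries, and the groups overlapped.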
